A study of Homo sapiens with 60 samples.

Results

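The genes described here are 6 kinases of the SRC family (SRC, YES1, FYN, LYN, LCK and FGR), the related kinase FRK, and 2 genes of the focal adhesion, PTK2 (focal adhesion kinase, FAK) and BCAR1 (the adaptor p130Cas). They were taken by symbol from a fixed list of 9 genes, and all 9 were found among the 19712 genes of the deposited tables. RNA-Seq was made in 4 cell lines of EGFR-mutant non-small cell lung cancer (NSCLC), PC9, HCC827, NCI-H1975 (H1975 below) and HCC2935, with 5 arms per line and 3 biological replicates per arm, 60 libraries in all. The 5 arms followed exposure to osimertinib, an inhibitor of mutant EGFR. Parental cells kept without drug for 21 days were given DMSO for 24 h (DMSO) or 500 nM osimertinib for 24 h (acute). Cells kept in 500 nM osimertinib for 21 days were drug-tolerant persister cells (DTPs), and the washout arms were such persisters after 24 h without drug (short washout) or after a longer time without drug (long washout). The long washout lasted until proliferation resumed, which was 7 days in PC9, 3 days in H1975, 4 days in HCC827 and 10 days in HCC2935, so that line and washout time cannot be told apart. All arms carry the EGFR mutation of their line, and the persister arms hold only the cells that outlived the drug. Since RNA was taken from whole cultures, more RNA per cell and a larger share of cells that express a gene cannot be told apart.

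SRC family kinases sit at the inner face of the plasma membrane and pass on signals from growth factor receptors, EGFR among them, and from integrins, the receptors that bind the extracellular matrix. The kinase CSK holds them inactive by phosphorylating their tail, and phosphatases remove that mark. At focal adhesions FAK is autophosphorylated, binds SRC, and the pair phosphorylates p130Cas, which then recruits CRK adaptors. SRC, YES1 and FYN are made in most tissues, LYN in many epithelia and in blood cells, and LCK and FGR mainly in blood cells. FRK is a SRC-like kinase of epithelial cells that lacks the membrane anchor of SRC. All of these proteins are regulated mostly by phosphorylation, which the mRNA levels given here do not measure.

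The libraries held 17.72 to 49.13 M estimated counts (median 30.13), with PC9 and H1975 (34.68 to 49.13) deeper than HCC827 and HCC2935 (17.72 to 25.58). All 6 epithelial markers (EPCAM, CDH1, KRT7, KRT8, KRT18 and KRT19) reached 1 TPM in at least 1 library of each line, with a summed level of 2300 to 15800 TPM per library. Among 10 blood cell markers the summed level was 0.282 to 12.8 TPM, and MS4A1 was at 0 in all 4 lines. Of the 10, 3 in H1975 and 2 in each other line reached 1 TPM in at least 1 library. The sum in PC9 was 2.3 to 3.0 TPM under DMSO, 8.61 to 9.62 in DTPs and 10.2 to 12.8 after the short washout. In the other lines the ranges of DMSO and DTPs overlapped. As a check of the treatment, 8 genes were read: the MAPK pathway targets DUSP6, SPRY2, SPRY4, ETV4, ETV5 and PHLDA1 and the proliferation genes MKI67 and TOP2A. Between 7 and 8 of them fell with acute osimertinib in each line. In the long washout 7 rose again over DTPs in PC9 and 6 in HCC2935, whereas 0 did in HCC827 and 0 in H1975. Over all genes the main edgeR fit called few or 0 differences between the washout arms and DTPs in these 2 lines. For the H1975 short washout this depended on the fit. The main fit called 9 genes and DESeq2 509, and edgeR fits that included the replicate number also called more. Replicate 3 of the PC9 long washout stood apart from the other two: its ETV4 level was 17.2 CPM (counts scaled to a common library size) against 63.4 and 80.3. Its MKI67 level was 249.9 CPM against 371.2 and 414.0. Long washout calls of members that depend on it are given with and without it, and values of other genes with it.

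SRC, FYN, LYN, YES1, PTK2 and BCAR1 were well expressed in each line before treatment, FRK was low, LCK was low or near 0, and FGR was at or near 0. By position in GRCh38 (GENCODE release 29), SRC lies at chromosome 20, 37344685 to 37406050, FYN at chromosome 6, 111660332 to 111873452, and FRK on the same chromosome at 115931149 to 116060758. YES1 lies at chromosome 18, 721588 to 812546, LCK at chromosome 1, 32251239 to 32286165, and FGR on that chromosome at 27612064 to 27635277. BCAR1 lies at chromosome 16, 75228187 to 75268053, and LYN and PTK2 are both on chromosome 8. No protein-coding gene overlaps a member, but YES1 has a named pseudogene (YES1P1) and BCAR1 has 2 (BCAR1P1 and BCAR1P2), so that the counting could have split some of their reads. Levels of different genes are compared in TPM, which divides by a gene's length. The tables imply a fixed length per gene in all 60 libraries, from 0.507 times that of SRC for FYN to 4.93 times that of SRC for FRK, and the order between genes depends on these lengths.

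Under DMSO each of the 8 members that could be tested differed between the lines, as did 91.1% of all genes tested (edgeR quasi-likelihood F-test over 12 libraries). For SRC the mean level was 76.1 ± 7.45 TPM in HCC827 (SD, n = 3), 66.4 ± 3.61 in HCC2935, 17.2 ± 2.3 in H1975 and 12.5 ± 1.74 in PC9, a 6.08-fold range. The libraries of HCC827 and HCC2935 overlapped and the other steps did not (adjusted p = 8.87e-10).

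FYN followed another order, with 65.0 ± 2.74 TPM in PC9, 27.3 ± 6.41 in HCC827, 22.9 ± 3.38 in HCC2935 and 7.65 ± 0.553 in H1975, an 8.5-fold range in which HCC827 and HCC2935 overlapped (adjusted p = 2.33e-09). PC9, the line with the least SRC, thus held the most FYN. YES1 and LYN varied least, 1.56-fold and 1.72-fold. YES1 was highest in PC9 (47.6 ± 3.45 TPM), with H1975, HCC827 and HCC2935 next to each other at 34.4, 31.9 and 30.5 TPM. LYN was lowest in PC9 (25.1 ± 2.62 TPM), below H1975, HCC827 and HCC2935 at 35.6, 41.2 and 43.3 TPM, whose libraries overlapped.

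FRK split the lines as SRC did, with 8.71 ± 1.61 TPM in HCC2935 and 7.8 ± 0.746 in HCC827 against 1.69 ± 0.583 in H1975 and 1.66 ± 0.336 in PC9, overlapping within each pair (adjusted p = 5.66e-07). PTK2 fell into 4 separate levels, 107 ± 4.73 TPM in PC9, 73.3 ± 1.75 in HCC827, 50.6 ± 3.29 in HCC2935 and 39.6 ± 3.32 in H1975. BCAR1 was highest in HCC2935 (143 ± 11.3 TPM), above PC9 (83.6), H1975 (78.0) and HCC827 (63.3), which overlapped with their neighbours. LCK reached 5.03 ± 1.96 TPM in HCC827 and 1.25 ± 0.78 in H1975 but 0.409 ± 0.18 in PC9 and 0.022 ± 0.0191 in HCC2935, and FGR was 0.0309 TPM or less in each line.

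**Figure D1:**
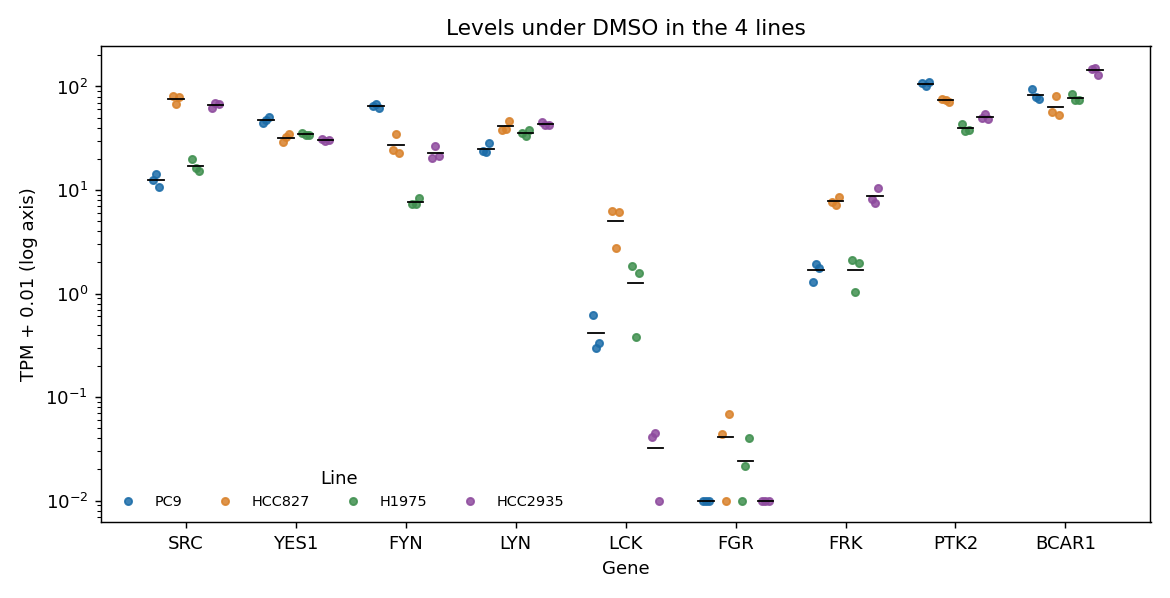
Levels of the 9 genes under DMSO, in TPM plus 0.01 on a log axis, for the 3 DMSO libraries of each of the 4 lines (points) with their mean (bar). SRC runs from 12.5 TPM in PC9 to 76.1 in HCC827, FYN from 7.65 in H1975 to 65.0 in PC9, and FGR sits at the bottom of the axis in every line.

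For the comparisons between arms, values are CPM scaled by TMM (trimmed mean of M values), the scale of the test, and a gene is called at an adjusted p under 0.05. FGR passed the filter on low counts in no line and LCK not in HCC2935, so 8 members were tested in PC9, HCC827 and H1975 and 7 in HCC2935. With acute osimertinib against DMSO, 5 of 8 members were called in PC9, 3 of 8 in HCC827, 6 of 8 in H1975 and 5 of 7 in HCC2935, beside 66.2%, 39.0%, 51.5% and 47.0% of all genes tested. For DTPs against DMSO, 6 of 8, 6 of 8, 6 of 8 and 1 of 7 were called, beside 69.1%, 43.3%, 51.6% and 52.8% of all genes. In DTPs against acute osimertinib, 3 of 8, 6 of 8, 4 of 8 and 4 of 7 were called, beside 33.8%, 29.5%, 37.1% and 44.7%. Single libraries decide some of these counts. The acute HCC827 count was 0 without acute replicate 2 or 3 and 1 without DMSO replicate 1 or 2. For DTPs against acute osimertinib it was 0 in PC9 without DTP replicate 1 or 2 and 1 without acute replicate 2 or 3. In H1975 it was 1 without acute replicate 3 and 2 without DTP replicate 2, and in HCC2935 it was 2 without acute replicate 3 or DTP replicate 1. A called gene is common in these data, and what follows describes which members moved, which way and by how much.

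Called higher in all 4 lines with acute osimertinib were SRC and FRK, beside 8.18% of the 13484 genes tested in all 4 lines. FYN was called higher in DTPs than in DMSO in all 4 lines (5.44% of genes), in DTPs than in acute osimertinib in all 4 (1.56%) and in the long washout than in DMSO in all 4 (3.32%). These last comparisons share DMSO or DTP libraries with each other. No member was called lower in all 4 lines in any of them. In a test of whether the response differs between the lines, 6 of 8 members were called for acute osimertinib and 8 of 8 for DTPs, beside 40.5% and 61.6% of all genes. The map of fold changes shows these signs side by side.

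**Figure D2:**
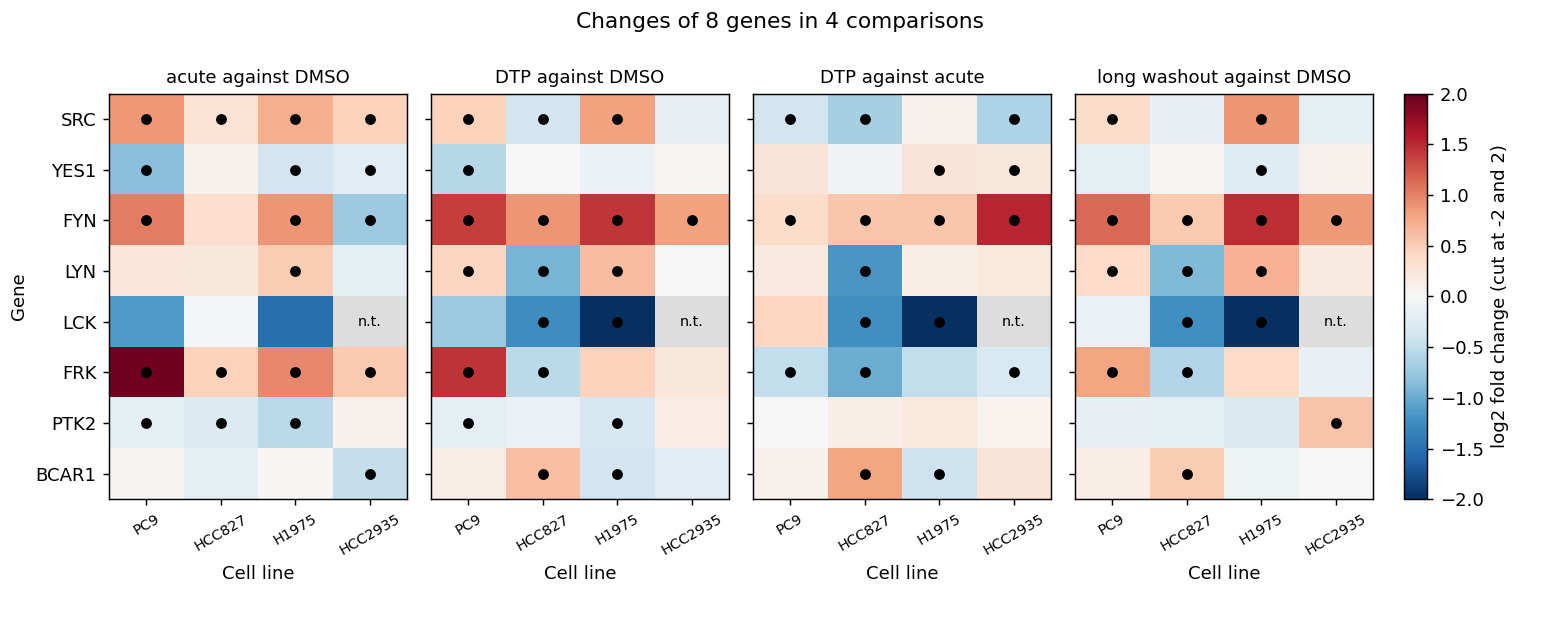
Log2 fold changes of 8 genes in the 4 lines for 4 comparisons between arms, as a colour scale cut at -2 and 2, with a dot where the adjusted p is under 0.05 and n.t. where the gene was not tested. SRC and FRK are called higher in all 4 lines with acute osimertinib and FYN in all 4 lines in DTPs against DMSO, while SRC, LYN and FRK in DTPs take opposite signs in different lines.

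SRC, the kinase after which the family is named, rose in each line within a day of osimertinib, by 1.81-fold in PC9, 1.65-fold in H1975, 1.38-fold in HCC2935 and 1.21-fold in HCC827. After 21 days the lines had parted: SRC was above DMSO in PC9 and H1975, below DMSO in HCC827, and no longer called in HCC2935. In PC9 it measured 29.1, 32.8 and 25.1 CPM under DMSO, 46.35, 57.6 and 53.6 under acute osimertinib, 40.4, 36.1 and 43.6 in DTPs, 39.4, 36.7 and 37.2 after the short washout and 38.8, 32.0 and 41.8 after the long washout. All acute and all DTP libraries lay above the DMSO libraries (log2 fold change 0.86 ± 0.12 SE, adjusted p = 2.28e-05, and 0.46 ± 0.12, adjusted p = 0.00354). The long washout gave 0.37 ± 0.12 over DMSO (adjusted p = 0.0229), with overlapping libraries. That call was lost without DMSO replicate 1 (0.37, adjusted p = 0.0551), DMSO replicate 3 (0.28, 0.108), long washout replicate 1 (0.35, 0.0626) or the outlying long washout replicate 3 (0.29, 0.0936). DTPs were lower than acute osimertinib by 0.39 (SE 0.12, adjusted p = 0.0218). This was lost without acute replicate 2 (-0.32, adjusted p = 0.0892) or 3 (-0.38, 0.0577) or DTP replicate 1 (-0.40, 0.0525) or 2 (-0.32, 0.0901), and with library size only (-0.25) or limma on log2 TPM (-0.12).

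In H1975 SRC stood at 43.5, 34.6 and 34.2 CPM under DMSO, 60.1, 63.7 and 61.4 under acute osimertinib, 73.4, 58.8 and 63.2 in DTPs, 68.2, 54.4 and 54.9 after the short and 65.1, 79.5 and 63.9 after the long washout. Every exposed library, washouts included, was above every DMSO library. The differences from DMSO were 0.72 ± 0.13 for acute osimertinib (adjusted p = 0.000274), 0.80 ± 0.13 for DTPs (adjusted p = 0.000121) and 0.89 ± 0.13 for the long washout (adjusted p = 4.38e-05).

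HCC827 and HCC2935, which start with more SRC, showed a rise and then a drop. In HCC2935 the values were 118.9, 131.8 and 121.6 CPM under DMSO, 158.1, 165.6 and 189.3 under acute osimertinib, 107.9, 111.4 and 114.5 in DTPs, 125.8, 116.7 and 131.7 after the short and 127.6, 84.7 and 116.0 after the long washout. The acute libraries were all the highest (0.46 ± 0.12, adjusted p = 0.00473), and DTPs fell back below them by 0.62 on the log2 scale (SE 0.12, adjusted p = 0.000545) to a level with no called difference from DMSO (-0.16 ± 0.12, adjusted p = 0.285).

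In HCC827 SRC was at 177.2, 147.2 and 180.3 CPM under DMSO, 186.2, 210.4 and 215.5 under acute osimertinib, 129.5, 133.3 and 124.5 in DTPs, 133.7, 143.5 and 127.5 after the short and 154.2, 151.2 and 147.5 after the long washout. The DTP libraries all lay below those of DMSO and acute osimertinib, under DMSO by 0.38 (SE 0.09, adjusted p = 0.00395) and under acute osimertinib by 0.66 (SE 0.09, adjusted p = 0.000158). The acute rise was small (0.28 ± 0.09, adjusted p = 0.027) and was lost without DMSO replicate 2 (0.19, adjusted p = 0.118), acute replicate 2 (0.28, 0.063) or acute replicate 3 (0.26, 0.0668). For DTPs against DMSO the difference between lines was called (adjusted p = 6.63e-06). For acute osimertinib it was called too (adjusted p = 0.0228). That call was lost without 1 of 5 libraries, namely HCC827 acute replicate 1 (adjusted p = 0.05), PC9 DMSO replicate 1 (0.0539) or 3 (0.0737) and PC9 acute replicate 2 (0.0744) or 3 (0.0556), and also with library size only (0.0828) and limma on log2 TPM (0.0823).

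**Figure D3:**
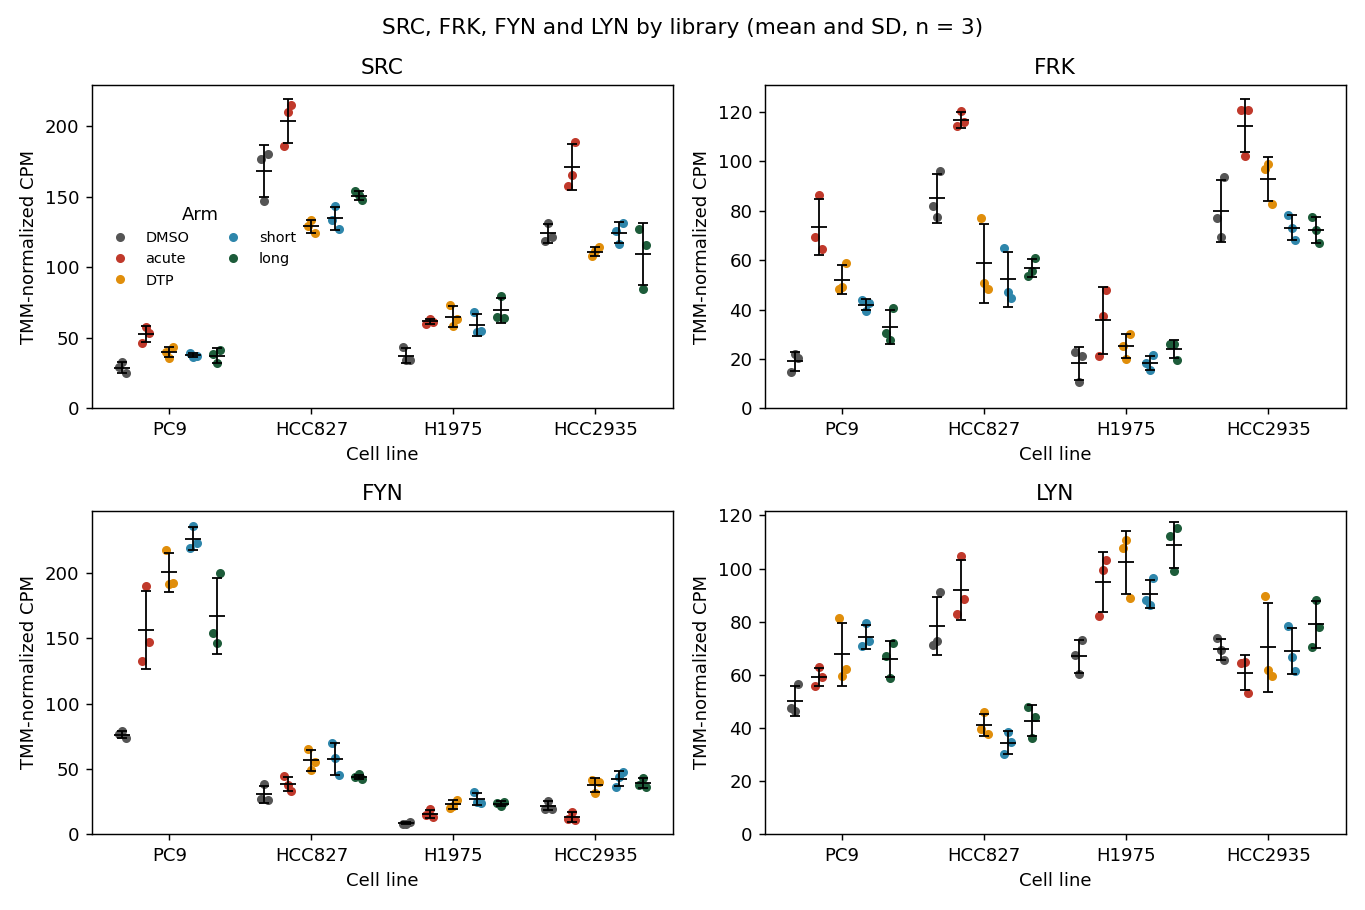
TMM-scaled CPM of SRC, FRK, FYN and LYN in each library of the 5 arms (points) with the mean and SD of 3 replicates, by line. SRC and FRK peak under acute osimertinib in HCC827 and HCC2935, FYN is above DMSO in the DTP libraries of each line, and LYN in HCC827 drops from 71.4 to 91.1 CPM under DMSO to 37.8 to 45.95 in DTPs.

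FYN, a broadly expressed family member, was the kinase with the same direction in the persisters of every line. DTPs held 2.63-fold more FYN mRNA than DMSO cells in PC9, 2.69-fold more in H1975, 1.86-fold more in HCC827 and 1.75-fold more in HCC2935. PC9 libraries measured 76.8, 78.8 and 73.5 CPM under DMSO, 132.4, 189.8 and 147.2 under acute osimertinib, 217.7, 191.6 and 192.5 in DTPs, 219.6, 236.4 and 223.1 after the short and 154.4, 146.5 and 200.1 after the long washout. No exposed library came down to the DMSO level, and the mean was highest after the short washout. Against DMSO the change was 1.03 ± 0.13 for acute osimertinib (adjusted p = 6.19e-06), 1.39 ± 0.13 for DTPs (adjusted p = 6.13e-07) and 1.13 ± 0.13 for the long washout (adjusted p = 1.99e-05). Without long washout replicate 3, the PC9 library that stood apart, FYN fell by 0.38 from DTPs to the long washout (adjusted p = 0.0123), while with it the difference was -0.26 ± 0.13 (adjusted p = 0.116).

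In H1975, the line with the least FYN, the values were 8.18, 7.81 and 9.38 CPM under DMSO, 14.4, 19.35 and 12.9 under acute osimertinib, 20.2, 22.0 and 26.2 in DTPs, 32.4, 25.0 and 24.1 after the short and 24.05, 21.55 and 24.7 after the long washout. The 3 arms after 21 days did not overlap with acute osimertinib, nor acute osimertinib with DMSO. The fitted changes over DMSO were 0.88 ± 0.16 (acute, adjusted p = 0.000461), 1.43 ± 0.17 (DTPs, adjusted p = 9.05e-06) and 1.47 ± 0.17 (long washout, adjusted p = 6.39e-06).

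HCC2935 took a different course. FYN there was 19.66, 25.6 and 19.66 CPM under DMSO, fell to 11.6, 17.2 and 10.8 under acute osimertinib, and stood at 41.9, 31.4 and 40.2 in DTPs, 36.1, 43.9 and 47.5 after the short and 38.0, 43.1 and 36.1 after the long washout. Acute libraries were all below and DTP libraries all above the DMSO libraries. The acute change was -0.72 ± 0.18 (adjusted p = 0.00393), the change in DTPs over DMSO 0.80 ± 0.18 (adjusted p = 0.00109) and that over acute osimertinib 1.52 ± 0.18 (adjusted p = 5.54e-06).

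HCC827 showed no called acute change (0.33 ± 0.18, adjusted p = 0.153), although without DMSO replicate 2 it was called (0.53, adjusted p = 0.0359). Its FYN values were 27.2, 38.2 and 26.1 CPM under DMSO, 44.3, 38.0 and 33.1 under acute osimertinib, 65.3, 49.35 and 55.2 in DTPs, 69.97, 58.2 and 45.3 after the short and 43.9, 45.8 and 42.45 after the long washout. DTPs were above both of the first arms (0.89 ± 0.18 over DMSO, adjusted p = 0.000996). The rise over acute osimertinib (0.56 ± 0.18, adjusted p = 0.0278) was lost without acute replicate 2 (0.51, adjusted p = 0.109), acute replicate 3 (0.42, 0.164), DTP replicate 1 (0.44, 0.0943) or DTP replicate 3 (0.53, 0.0906). The long washout was at 0.53 ± 0.18 over DMSO (adjusted p = 0.0262). The call was lost without DMSO replicate 1 (0.45, adjusted p = 0.095) or 3 (0.40, 0.135) or long washout replicate 1 (0.53, 0.0576) or 2 (0.50, 0.0721).

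The rise of FYN in DTPs over DMSO was called in every alternative and in every fit with a library left out, in each of the 4 lines. The step from acute osimertinib to DTPs was less firm outside HCC2935. In PC9 it was 0.36 ± 0.13 (adjusted p = 0.0419) and stayed called in 5 of 15 fits with a library left out, the values of the others running up to an adjusted p of 0.178 without acute replicate 1 (0.25). In H1975 it was 0.55 ± 0.16 (adjusted p = 0.0152), and it was lost without acute replicate 3 (0.44, adjusted p = 0.0751) or DTP replicate 3 (0.44, 0.0649). The size of the rise differed between the lines (adjusted p = 0.024, and 0.0511 without HCC2935 DMSO replicate 2). FYN is also made by fibroblasts, and the summed level of 6 fibroblast markers was read beside it. In PC9 that sum was 6.17 to 8.44 TPM under DMSO and 13.9 to 18.5 in DTPs, and in HCC827 5.3 to 9.47 and 26.0 to 62.9. In H1975 it was 24.4 to 60.3 TPM and 42.1 to 117, and in HCC2935 27.0 to 33.7 and 44.3 to 84.6, the H1975 ranges overlapping. Under acute osimertinib it was 35.2 to 46.0 TPM in HCC2935, above DMSO while FYN was below, and 94.3 to 207 in H1975 against 42.1 to 117 in its DTPs, while acute FYN was below that of DTPs. Between 1 of the 6 (PC9) and 5 of the 6 (HCC827) exceeded 1 TPM in any library, none was at 0 throughout a line, and their part in the result was not tested.

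YES1, a close relative of SRC, went down where SRC went up in PC9 and H1975. PC9 libraries had 151.2, 161.1 and 176.4 CPM under DMSO, 88.6, 99.45 and 86.8 under acute osimertinib, 121.0, 98.9 and 109.8 in DTPs, 106.7, 130.8 and 114.5 after the short and 137.1, 171.4 and 123.6 after the long washout. Acute and DTP libraries were all below DMSO (-0.83 ± 0.12, adjusted p = 2.51e-05, and -0.57 ± 0.12, adjusted p = 0.000673), and the long washout overlapped with it. YES1 rose from DTPs to the long washout by 0.39 ± 0.12 (adjusted p = 0.0201), a call lost without long washout replicate 2 (0.25, adjusted p = 0.115) or DTP replicate 2 (0.32, 0.0853). Without the outlying replicate 3 the rise was 0.52 ± 0.11 (adjusted p = 0.00157).

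H1975 showed a smaller acute decrease, from 115.5, 105.4 and 110.7 CPM under DMSO to 81.95, 87.1 and 85.95 under acute osimertinib (-0.38 ± 0.08, adjusted p = 0.000788), with no overlap. Its DTPs at 99.8, 112.4 and 92.7 CPM overlapped with DMSO (-0.12 ± 0.08, adjusted p = 0.196), although without DTP replicate 2 they were called lower (-0.21, adjusted p = 0.0289). The H1975 long washout libraries, at 93.6, 93.4 and 94.0 CPM, all lay below DMSO. In HCC2935 YES1 fell from 87.5, 83.3 and 81.5 to 73.2, 75.4 and 69.9 CPM (-0.21 ± 0.08, adjusted p = 0.0359). That call was lost without DMSO replicate 1 (-0.18, adjusted p = 0.119) or 2 (-0.22, 0.0654) or acute replicate 1 (-0.21, 0.0634) or 3 (-0.18, 0.109). HCC827 had no called YES1 difference in any of the 6 comparisons, with all 15 libraries between 93.0 and 118.1 CPM. The acute response of YES1 differed between the lines (adjusted p = 3.21e-05), as did that in DTPs (adjusted p = 0.00123).

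LYN, a family member of epithelial and blood cells, took opposite directions in the DTPs of different lines. In HCC827 it measured 71.4, 72.8 and 91.1 CPM under DMSO, 82.97, 104.7 and 88.6 under acute osimertinib, 39.6, 45.95 and 37.8 in DTPs, 30.1, 38.6 and 34.7 after the short and 47.97, 36.2 and 44.1 after the long washout. The 9 libraries from the 3 arms after 21 days all lay below the 6 of DMSO and acute osimertinib. LYN in DTPs was lower than under DMSO by 0.93 (SE 0.14, adjusted p = 0.000123) and than under acute osimertinib by 1.16 (SE 0.14, adjusted p = 6.11e-05), and the long washout stayed 0.88 below DMSO (SE 0.14, adjusted p = 0.000232).

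H1975 went the other way, with 67.5, 60.3 and 72.95 CPM under DMSO, 82.0, 99.3 and 103.3 under acute osimertinib, 107.6, 110.8 and 88.8 in DTPs, 88.3, 86.4 and 96.4 after the short and 112.4, 99.2 and 115.1 after the long washout. No exposed library reached down to DMSO (0.50 ± 0.11, adjusted p = 0.00161, 0.61 ± 0.11, adjusted p = 0.000348, and 0.70 ± 0.11, adjusted p = 0.000107, for acute, DTPs and long washout). In PC9 DTPs LYN was at 81.4, 59.6 and 62.3 CPM against 47.65, 46.2 and 56.6 under DMSO (0.43 ± 0.12, adjusted p = 0.00507). Its long washout at 67.1, 58.7 and 71.9 CPM was 0.39 ± 0.12 over DMSO (adjusted p = 0.0159), a call lost without the outlying long washout replicate 3 (0.33, adjusted p = 0.0572) and without DMSO replicate 1 (0.36, 0.0586) or 2 (0.34, 0.0638). HCC2935 overlapped between DMSO (73.7, 69.5 and 65.75 CPM) and DTPs (89.7, 61.7 and 59.6), at a difference of 0.01 ± 0.15 (adjusted p = 0.945). With acute osimertinib its LYN was at -0.20 ± 0.15 (adjusted p = 0.288), and at -0.25 ± 0.08 (adjusted p = 0.0353) when those 6 libraries were fitted with a replicate block. The difference between lines was called for DTPs (adjusted p = 1.24e-05) and for acute osimertinib (adjusted p = 0.0138).

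FRK, the epithelial SRC-like kinase, gave the largest acute fold change of the members tested, in PC9. There it went from 14.7, 21.9 and 20.5 CPM under DMSO to 69.5, 86.2 and 64.6 under acute osimertinib, 48.4, 49.2 and 58.7 in DTPs, 43.7, 39.6 and 42.8 after the short and 30.4, 27.7 and 40.7 after the long washout. The arms fell in that order, with no overlap between DMSO, acute osimertinib and DTPs. Relative to DMSO the changes were 1.94 ± 0.17 (acute, 3.85-fold, adjusted p = 2.62e-07), 1.45 ± 0.17 (DTPs, adjusted p = 3.31e-06) and 0.79 ± 0.17 (long washout, adjusted p = 0.00169), while from DTPs to the long washout FRK fell by 0.66 (SE 0.16, adjusted p = 0.00695, and by 0.81 without the outlying replicate 3).

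The acute rise of FRK in the other 3 lines was smaller. HCC2935 had 77.1, 69.15 and 93.6 CPM under DMSO and 120.5, 102.1 and 120.6 under acute osimertinib (0.52 ± 0.12, adjusted p = 0.00163), without overlap. H1975 had 22.8, 10.6 and 21.4 CPM against 21.4, 37.4 and 48.1, overlapping at the lowest acute library (0.96 ± 0.29, adjusted p = 0.0135). This call was lost without acute replicate 3 (0.69, adjusted p = 0.0743). HCC827 rose from 81.8, 77.25 and 96.2 CPM to 114.1, 120.3 and 115.7 (0.46 ± 0.17, adjusted p = 0.0455). That call was kept in 6 of 15 fits with a library left out and as weak as an adjusted p of 0.145 without DMSO replicate 2 (0.39). It was also lost with limma on log2 TPM (0.53, adjusted p = 0.0742) and in the fit of all 60 libraries (0.47, 0.068). The count of FRK among the genes called higher in all 4 lines rests on this value and on the H1975 call.

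After 21 days HCC827 held less FRK than under either earlier arm, at 77.0, 50.7 and 48.2 CPM. Against acute osimertinib the decrease was 0.99 (SE 0.17, adjusted p = 0.000711). Against DMSO the value was -0.54 ± 0.17 (adjusted p = 0.0196), not called without DMSO replicate 3 (-0.46, adjusted p = 0.0747), DTP replicate 2 (-0.44, 0.0797) or DTP replicate 3 (-0.44, 0.0776), nor with library size only (-0.49, 0.0514), the 6 libraries of the 2 arms (-0.53, 0.0587) or limma on log2 TPM (-0.54, 0.0667). The summed level of the 6 epithelial markers was read beside FRK and LYN. In HCC827 it was 8230 to 10600 TPM under DMSO and 3350 to 5890 in DTPs, where both were lower. Under acute osimertinib, where FRK was called higher in each line, the sum went both ways. In PC9 it was 8600 to 8950 TPM under DMSO and 14500 to 15800 acute, and in H1975 3610 to 4620 and 5520 to 7170. In HCC2935 it was lower, 12300 to 13500 TPM under DMSO and 6560 to 7620 acute, and acute HCC827 (7140 to 8630) overlapped with DMSO. DTPs with LYN called higher had a lower sum in H1975 (2370 to 3110) and a higher one in PC9 (9750 to 10200). The part of these changes in the results was not tested. DTPs of H1975 (0.46 ± 0.29, adjusted p = 0.202) and HCC2935 (0.22 ± 0.12, adjusted p = 0.129) were not called against DMSO, although HCC2935 was without DMSO replicate 3 (0.34, adjusted p = 0.0212). The difference between the lines was called for acute osimertinib (adjusted p = 0.00388) and for DTPs (adjusted p = 0.000256).

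LCK, the T cell member of the family, was highest under DMSO in HCC827 and H1975, and was called lower in DTPs of these lines. H1975 libraries held 2.19, 0.416 and 1.91 CPM under DMSO, 0.194, 0.526 and 0.868 under acute osimertinib, 0.0453, 0 and 0.124 in DTPs, 0.023, 0.0444 and 0 after the short washout and 0 in all 3 after the long washout. Summed over the arm this is 204 counts under DMSO, 7 in DTPs and 0 after the long washout. Every DTP library lay below every DMSO library (-4.74 ± 0.95, adjusted p = 0.0011). LCK passed the low-count filter in H1975 only with the help of its DMSO libraries, the arm where it was highest. The decrease from DMSO is therefore a description, not independent of that filter. Against a floor of 3 counts over the group, LCK in the long washout was at least 63.4-fold lower than in the pooled DMSO libraries. Single DMSO libraries held 18.1 to 103.76 counts, and the bound does not cover that spread. In HCC827 LCK went from 7.40, 3.27 and 7.43 CPM under DMSO to 3.72, 1.82 and 2.07 in DTPs, which overlapped (-1.25 ± 0.38, adjusted p = 0.0148). The HCC827 call was lost without DMSO replicate 1 (-1.08, adjusted p = 0.0566) or 3 (-1.09, 0.0538) or DTP replicate 2 (-1.06, 0.0626) or 3 (-1.14, 0.0534). PC9 had 0.772, 0.3515 and 0.413 CPM of LCK under DMSO and 0.268, 0.139 and 0.287 under acute osimertinib, without overlap but not called. When PC9 long washout replicate 3 was left out, this acute decrease was called (-1.17 ± 0.47, adjusted p = 0.0388). The 10 blood cell markers summed to 5.2 to 7.53 TPM under DMSO and 3.73 to 7.07 in DTPs of H1975, and to 0.282 to 1.36 and 1.29 to 1.84 in HCC827. In HCC827 CD3E, CD2 and MS4A1 were at 0, and 2 of the 10 reached 1 TPM in at least 1 library. The response of LCK in DTPs differed between the 4 lines (adjusted p = 0.00875). That test included HCC2935, where LCK was at 0.0859 CPM or less in every DMSO and DTP library. FGR, the myeloid member, was at 0.376 CPM or less in all 60 libraries and was highest as a group in acute H1975, with 0.366, 0.191 and 0.255 CPM against 0, 0.0231 and 0.0465 under DMSO.

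**Figure D4:**
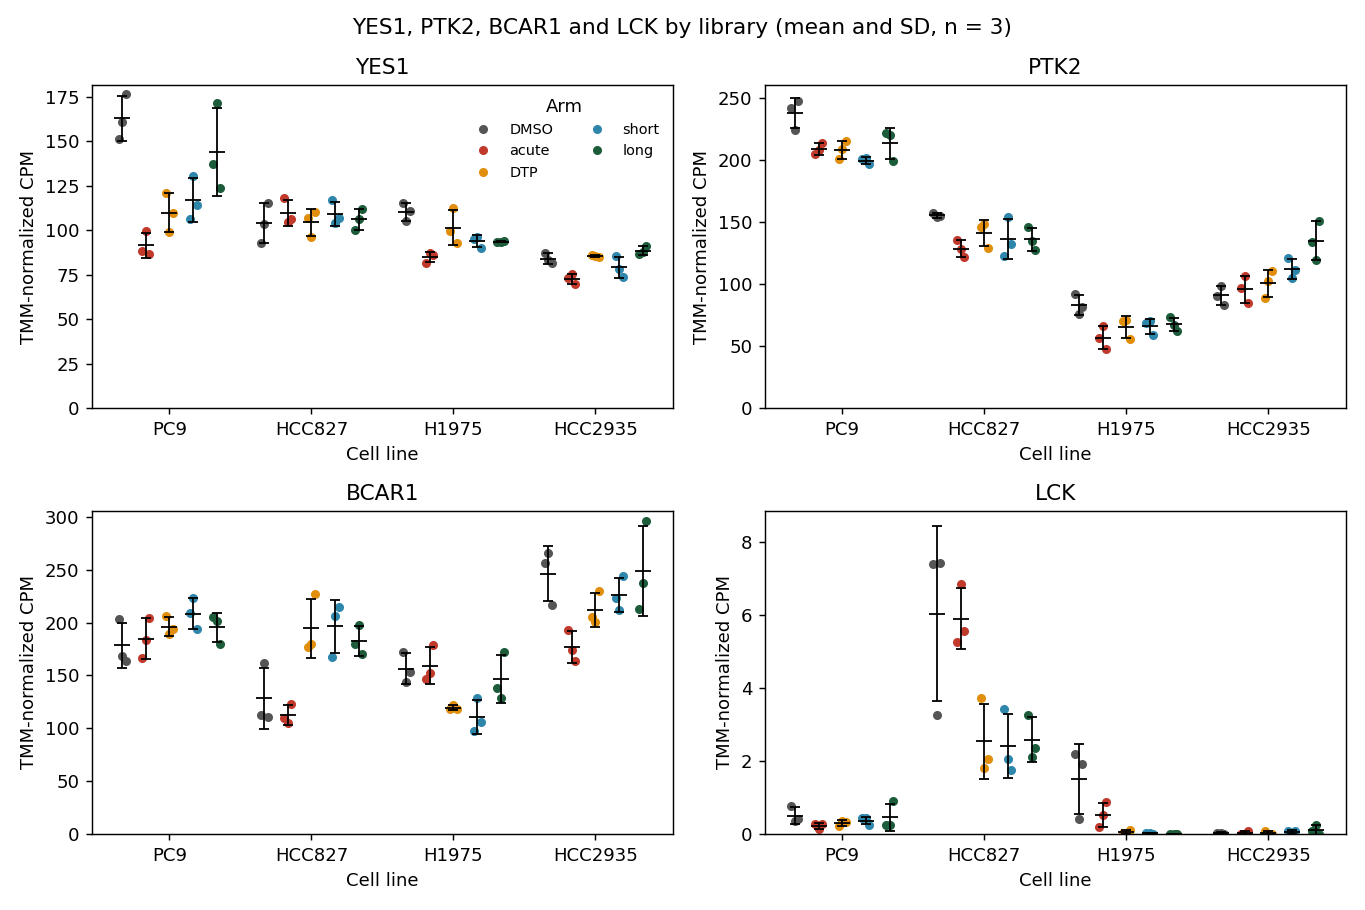
TMM-scaled CPM of YES1, PTK2, BCAR1 and LCK in each library of the 5 arms (points) with the mean and SD of 3 replicates, by line. YES1 in PC9 drops from a mean of 162.9 CPM under DMSO to 91.6 under acute osimertinib, LCK in H1975 reaches 0 after the long washout, and the vertical scales of the genes differ.

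PTK2, which encodes FAK, was called lower with acute osimertinib in 3 lines and higher after the long washout in HCC2935. The largest acute change was in H1975, from 92.2, 76.1 and 81.5 CPM under DMSO to 56.5, 66.9 and 48.3, without overlap (-0.54 ± 0.13, adjusted p = 0.00286). H1975 DTPs at 70.8, 71.5 and 55.75 CPM were lower than DMSO by 0.34 (SE 0.13, adjusted p = 0.0412). That call was lost without DMSO replicate 1 (-0.27, adjusted p = 0.142) or 3 (-0.36, 0.0629), DTP replicate 3 (-0.23, 0.179) or long washout replicate 2 (-0.34, 0.0526). HCC827 changed from 157.9, 154.2 and 155.4 to 135.5, 128.9 and 122.0 CPM with acute osimertinib (-0.27 ± 0.10, adjusted p = 0.0337), called in 10 of 15 fits with a library left out and at most at an adjusted p of 0.15 without acute replicate 3 (-0.21). It was also lost with library size only (-0.18, adjusted p = 0.164), no filter (-0.26, 0.0553) and limma on log2 TPM (-0.21, 0.113).

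In PC9 PTK2 measured 242.6, 224.9 and 248.3 CPM under DMSO, 205.0, 208.1 and 214.2 under acute osimertinib and 200.8, 209.2 and 215.6 in DTPs, a change of -0.19 ± 0.06 in both (adjusted p = 0.014 and 0.0119). The acute call was lost without DMSO replicate 3 (-0.16, adjusted p = 0.0556). In DTPs the sign depended on the scale: limma on the deposited log2 TPM gave 0.06 (adjusted p = 0.427), where the median of all genes was itself at 0.30. HCC2935 was the line in which PTK2 went up late, with 90.7, 99.2 and 83.6 CPM under DMSO, 89.4, 102.9 and 111.1 in DTPs and 134.6, 119.9 and 151.4 after the long washout, all of the latter above both other arms (0.57 ± 0.11 over DMSO, adjusted p = 0.000742). Over DTPs the rise was 0.42 ± 0.11 (adjusted p = 0.0237). This was lost without long washout replicate 3 (0.33, adjusted p = 0.13) or DTP replicate 1 (0.34, 0.0987) or 2 (0.43, 0.0631). The lines differed for acute osimertinib (adjusted p = 0.0123) and for DTPs (adjusted p = 0.0393). The second call was lost on leaving out any 1 of 11 of the 24 libraries, at most at an adjusted p of 0.13 without HCC2935 DTP replicate 3.

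BCAR1, the scaffold that FAK and SRC phosphorylate, was called in different directions, and in different arms, in HCC827, H1975 and HCC2935. In HCC827 it was 112.9, 161.6 and 110.7 CPM under DMSO, 109.6, 105.1 and 123.5 under acute osimertinib and 176.7, 180.1 and 226.9 in DTPs, the DTP libraries being above the others (0.60 ± 0.15 over DMSO, adjusted p = 0.00492, and 0.79 ± 0.15 over acute osimertinib, adjusted p = 0.00146). In HCC2935 it fell with acute osimertinib from 256.2, 265.4 and 216.8 to 193.1, 174.2 and 163.8 CPM (-0.48 ± 0.12, adjusted p = 0.00341), without overlap. H1975 DTPs at 118.0, 122.1 and 118.7 CPM were below DMSO at 172.1, 144.1 and 153.4 (-0.39 ± 0.12, adjusted p = 0.0167), a call lost without DMSO replicate 1 (-0.33, adjusted p = 0.0655). PC9 had no called difference in BCAR1 in any of the 6 comparisons. The response in DTPs differed between the lines (adjusted p = 0.000834) and the acute response did not pass (adjusted p = 0.0794), with adjusted p = 0.045 without HCC2935 DMSO replicate 3 and 0.0157 without HCC827 DMSO replicate 2.

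After removal of the drug few members were called against DTPs, beside small shares of all genes in most of these comparisons. A day of washout changed 0 of 8 members in PC9, 0 of 8 in HCC827, 0 of 8 in H1975 and 0 of 7 in HCC2935 by edgeR, beside 6.03%, 0%, 0.0585% and 3.12% of all genes. At an unadjusted p under 0.05 the counts were 0, 0, 0 and 1, and DESeq2 called 0 in each line. FRK in HCC2935 was the nearest to a call (-0.34 ± 0.12, adjusted p = 0.127), going from 96.8, 98.9 and 82.8 CPM in DTPs to 78.4, 73.1 and 67.96. In H1975, where the libraries of DTPs and the short washout with the same replicate number deviated together, a fit of these 6 libraries with the replicate number as a block called FRK lower (-0.45 ± 0.10, adjusted p = 0.00922, against 0.541 without the block), from 25.3, 20.2 and 30.1 to 18.25, 15.5 and 21.5 CPM.

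The long washout against DTPs called 2 of 8 members in PC9 (YES1 higher and FRK lower), 0 of 8 in HCC827, 0 of 8 in H1975 and 1 of 7 in HCC2935 (PTK2 higher), beside 37.2%, 0%, 0.00650% and 11.8% of all genes. In HCC827 and H1975, 1 member each had an unadjusted p under 0.05 and DESeq2 called 0. Whether this step differs between the lines was called for 0 of 8 members by edgeR, beside 7.52% of all genes, with YES1 nearest (adjusted p = 0.0775, and 0.0117 without PC9 long washout replicate 3). Against DMSO the long washout still called 4 of 8 members in PC9, 5 of 8 in HCC827, 5 of 8 in H1975 and 2 of 7 in HCC2935, beside 44.8%, 42.0%, 53.4% and 43.2% of all genes. The PC9 count was 2 without long washout replicate 3 (FYN and FRK) and 2 without DMSO replicate 1. The HCC827 count was 1 without DMSO replicate 3 and 2 without DMSO replicate 1 or long washout replicate 2. In PC9 and HCC2935, where the treatment check genes had risen over DTPs, 5 of 8 and 6 of 8 of these genes were still called below DMSO (median log2 change -1.08 and -1.30). FYN was above DMSO there by 1.13 ± 0.13 and 0.85 ± 0.18 (adjusted p = 1.99e-05 and 0.000973), and in PC9 by 0.98 ± 0.11 without replicate 3.

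As a share of the summed TPM of the 6 SRC family kinases within a library, which does not depend on the scaling between libraries, FYN grew in the DTPs of each line. In PC9 its share was 43.2% ± 2.12 under DMSO (SD, n = 3), 62.4% ± 2.65 under acute osimertinib, 67.2% ± 1.24 in DTPs, 68.6% ± 0.466 after the short and 60.5% ± 4.19 after the long washout. In HCC827 it was 15.1% ± 4.04 under DMSO and 30.6% ± 2.96 in DTPs, in H1975 7.97% ± 0.622 and 15.2% ± 2.83, and in HCC2935 14.0% ± 1.63 and 22.8% ± 2.18. No DTP library overlapped with a DMSO library in any line.

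The other kinases gave way differently. In PC9 the share of YES1 went from 31.6% ± 1.77 to 12.6% ± 0.435 in DTPs, and in H1975 from 35.8% ± 1.24 to 23.1% ± 1.49. LYN in HCC827 went from 22.6% ± 1.77 to 13.2% ± 1.74. SRC took the largest share in HCC2935 and HCC827 under DMSO (40.7% ± 1.26 and 41.9% ± 3.51), reached 53.9% ± 4.6 in acute HCC2935, and remained the most abundant of the 6 in DTPs of both (34.3% ± 3.34 and 35.5% ± 2.08). FYN led in PC9 in every arm, and in H1975 LYN had the highest mean share in every arm, with 37.1% ± 1.91 under DMSO, where it overlapped with YES1, and 39.8% ± 2.73 in DTPs. These orders depend on the gene lengths behind TPM. Mean CPM, which does not divide by length, was 162.9 for YES1 and 76.4 for FYN in PC9 under DMSO, and 109.9 and 200.6 in DTPs. In H1975 it was 110.5 for YES1 and 66.9 for LYN under DMSO, and 101.6 and 102.4 in DTPs. The sum itself was 151 ± 3.32 TPM under DMSO and 302 ± 21.8 in DTPs of PC9, then 182 ± 7.58 in HCC827, where the DTP libraries ran from 157 to 186, 96.1 ± 4.4 and 135 ± 10.7 in H1975 and 163 ± 4.96 and 193 ± 13.0 in HCC2935. On the TPM scale the median of all genes in DTPs against DMSO was at 0.30 (log2) in PC9 and 0.19 in HCC2935, so these sums stand partly above the scale of the tests.

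**Figure D5:**
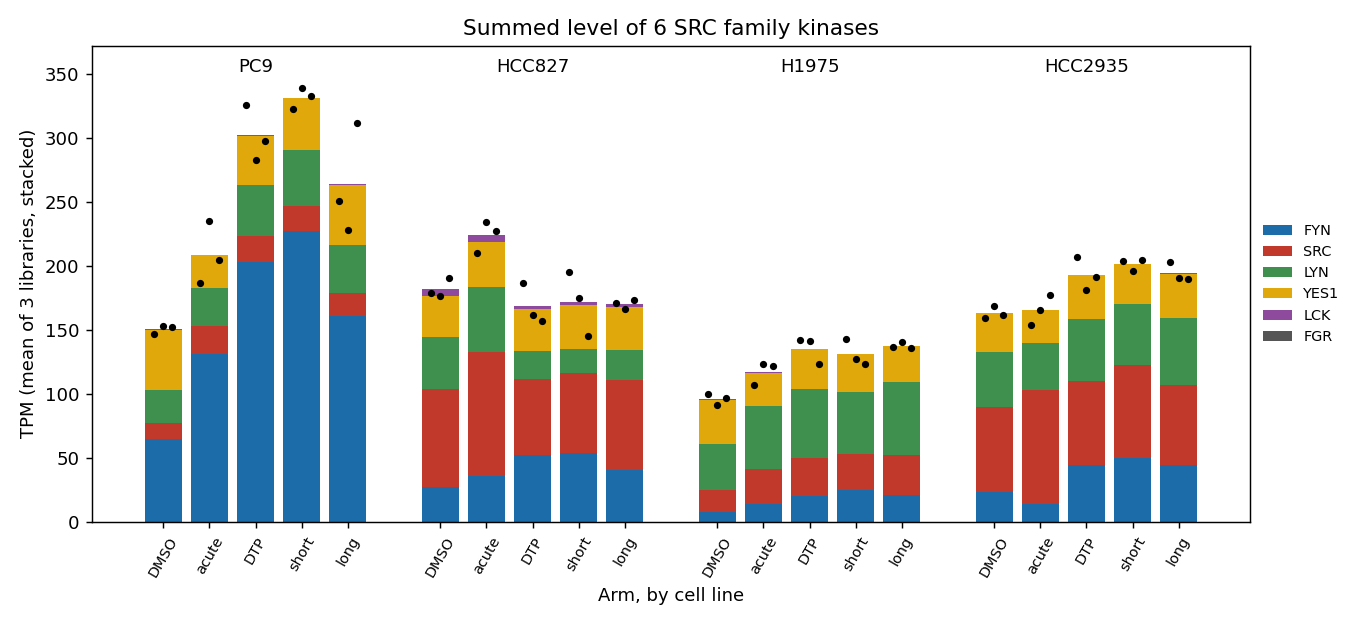
Mean TPM of the 6 SRC family kinases, stacked, in each arm and line, with the sum of each library as a dot (3 per arm). The summed level in PC9 goes from 151 TPM under DMSO to 302 in DTPs, mostly as FYN, while in HCC827 the sum is 182 under DMSO and 157 to 186 in DTPs with more FYN and less LYN.

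Relatives of the members gave some of the largest changes. NEDD9, an adaptor of the same family as BCAR1, rose in all 4 lines. Its values in PC9 were 43.6, 42.7 and 41.97 CPM under DMSO, 470.2, 524.7 and 447.6 under acute osimertinib and 462.0, 441.7 and 425.5 in DTPs, and in HCC2935 272.7, 276.5 and 255.0, then 377.4, 458.8 and 311.8, then 1042, 1052 and 908.7. The libraries of exposed and DMSO cells did not overlap. The acute change was 3.49 ± 0.25 in PC9 (adjusted p = 1.10e-07), 2.37 ± 0.47 in HCC827 (adjusted p = 0.00106), 1.65 ± 0.17 in H1975 (adjusted p = 3.81e-06) and 0.51 ± 0.15 in HCC2935 (adjusted p = 0.0122). In DTPs the changes over DMSO were 3.37 ± 0.25, 3.09 ± 0.47, 2.56 ± 0.18 and 1.90 ± 0.16 in the same order (adjusted p = 2.20e-07, 0.000128, 2.22e-07 and 1.14e-07).

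PTK2B (PYK2), the kinase most like FAK, was called where PTK2 was not in HCC2935, with 39.0, 34.5 and 32.7 CPM under DMSO, 67.0, 63.45 and 61.7 under acute osimertinib and 61.1, 60.4 and 59.9 in DTPs (0.86 ± 0.11, adjusted p = 9.92e-06, and 0.77 ± 0.11, adjusted p = 1.91e-05). In HCC827 DTPs it fell from 32.7, 29.7 and 29.95 to 15.3, 13.4 and 7.84 CPM (-1.34 ± 0.25, adjusted p = 0.000635). In PC9 it rose with both exposures (0.38 ± 0.09, adjusted p = 0.00232, and 0.58 ± 0.09, adjusted p = 7.23e-05), and in H1975 with acute osimertinib only (1.02 ± 0.21, adjusted p = 0.000985), the DTP value being -0.10. Among the rarer relatives, EFS passed the filter in HCC2935 alone, and BLK and CASS4 reached at most 2.51 CPM. BLK was called lower in PC9 with acute osimertinib (-1.81 ± 0.44) and in DTPs (-1.41 ± 0.43) and higher in HCC827 DTPs (2.04 ± 0.51), CASS4 was higher in PC9 DTPs (2.66 ± 0.53), and EFS was higher in acute HCC2935 (1.40 ± 0.48).

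Of 15 regulators of SRC kinases (kinases, phosphatases, adaptors and ubiquitin ligases that act on them), 13 of 14 tested were called with acute osimertinib in PC9 (5 higher, 8 lower), 3 of 15 in HCC827 (2 higher, 1 lower), 7 of 15 in H1975 (5 higher, 2 lower) and 6 of 13 in HCC2935 (4 higher, 2 lower), beside 66.2%, 39.0%, 51.5% and 47.0% of all genes. The median log2 fold change of the list was -0.47, -0.13, 0.01 and -0.01, beside 0.07, 0.02, 0.10 and 0.07 over all genes. CBLB, a ubiquitin ligase that acts on activated tyrosine kinases, was among the highest of the list in each line (2.23 ± 0.25 in PC9, 1.30 ± 0.23 in HCC827, 1.60 ± 0.22 in H1975 and 0.80 ± 0.17 in HCC2935). PAG1, the membrane adaptor that recruits CSK, was the lowest in PC9 (-1.67 ± 0.31), and the CSK relative MATK the highest in H1975 (2.1 ± 0.32).

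In DTPs 9 of 14 regulators were called in PC9 (4 higher, 5 lower), 10 of 15 in HCC827 (8 higher, 2 lower), 9 of 15 in H1975 (5 higher, 4 lower) and 5 of 13 in HCC2935 (3 higher, 2 lower), beside 69.1%, 43.3%, 51.6% and 52.8% of all genes. CSK itself, the kinase that shuts the family off, was among the lowest in PC9 (-0.82 ± 0.09, adjusted p = 2.94e-06), with the phosphatase PTPN11 (SHP2, -1.10 ± 0.12). CBLB was again among the highest in PC9 (1.98 ± 0.25), H1975 (1.27 ± 0.22) and HCC2935 (0.48 ± 0.17). CBLC was the lowest in HCC827 (-2.17 ± 0.66) and H1975 (-4.80 ± 0.76), PTPRE the highest in HCC827 (1.85 ± 0.16) and PTPRJ the highest in HCC2935 (1.02 ± 0.10).

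Of 35 focal adhesion and adaptor genes, 28 of 35 were called with acute osimertinib in PC9 (15 higher, 13 lower), 14 of 34 in HCC827 (6 higher, 8 lower), 19 of 35 in H1975 (15 higher, 4 lower) and 22 of 34 in HCC2935 (6 higher, 16 lower), beside the same shares of all genes as for the regulators. The list medians were 0.09, -0.07, 0.27 and -0.19, beside 0.07, 0.02, 0.10 and 0.07 over all genes. In DTPs the counts were 29 of 35 (17 higher, 12 lower), 20 of 34 (12 higher, 8 lower), 18 of 35 (11 higher, 7 lower) and 24 of 34 (13 higher, 11 lower), beside 69.1%, 43.3%, 51.6% and 52.8% of all genes, at medians of 0.13, 0.18, 0.06 and 0.16 beside 0.06, 0.03, 0.02 and 0.04. LIMS2, a partner of integrin-linked kinase, was among the highest of the DTPs in each line (5.60 ± 0.46 in PC9, 4.50 ± 0.69 in HCC827, 1.00 ± 0.27 in H1975 and 4.55 ± 0.39 in HCC2935). TNS4, a tensin of epithelial cells, was among the lowest in PC9 (-2.24 ± 0.30), H1975 (-4.45 ± 0.47) and HCC2935 (-1.02 ± 0.18), and its relatives TNS1 (2.40 ± 0.36 in PC9 and 2.68 ± 0.58 in HCC827) and TNS2 (2.27 ± 0.32 in H1975) were among the highest. CAV1 took opposite signs in DTPs of HCC827 (-1.51 ± 0.17) and HCC2935 (2.45 ± 0.26), a difference that was not tested.

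Across the 20 group means, after the mean of each line was taken off, SRC and FRK ran most alike of the members (Pearson r = 0.81), while YES1 ran against both (r = -0.59 with SRC and -0.63 with FRK). These are descriptions over 20 points that share libraries' lines and arms. Among 13531 genes, the 3 most like SRC were KLF8, FKBP8 and MED11 (r = 0.94, 0.91 and 0.91), and the 3 most like FYN were CRYAB, FSTL1 and SPTAN1 (r = 0.96, 0.95 and 0.94). For FRK they were NPEPPS, C11orf52 and IL10RB (r = 0.96, 0.95 and 0.95), for LYN MPZL2, TPD52L1 and BBX (r = 0.95, 0.92 and 0.90), and for YES1 YWHAG, LARP1 and BICD2 (r = 0.91, 0.90 and 0.89). PTK2 was nearest to LSM1, SMOX and PRCC (r = 0.88 each), and BCAR1 to PRAG1, GPATCH2L and CDH4 (r = 0.91, 0.88 and 0.88).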

How the data were processed

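RNA was poly(A)-selected and sequenced by the authors. They deposited a table of estimated counts (not whole numbers, not scaled between libraries) and one of log2 TPM, both for 19712 gene symbols. The deposited log2 TPM hold an added 0.01, which puts genes at 0 at -6.64. The submitters' processing notes name HISAT2 2.1.0, Salmon 0.8.2 and the hg38 build. Lengths used for TPM are not given in the sources used here.

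Estimated counts were rounded and fitted per line over its 15 libraries with edgeR 4.0.16 in R 4.3.3 (filterByExpr, TMM, quasi-likelihood F-test with robust estimation), with 6 contrasts between arms. Differences between lines were F-tests of interaction terms over 24 libraries, and of the line over the 12 DMSO libraries. The Benjamini-Hochberg adjustment ran over each comparison's full table of tested genes, and ± is the standard error of a log2 fold change unless SD is given. The standard errors include the spread between replicates, while the floor of 3 counts covers counting error only. On simulated data with known changes, the fit of DTPs against DMSO recovered 77% of 2-fold changes in PC9 and 71% in HCC827. It recovered 82% in H1975 and 82% in HCC2935, and the test between lines 43%, with 3.85% to 9.09% of calls false. Of 1.5-fold changes, 48%, 25%, 49% and 52% were recovered in the same order, and 7% between lines. The simulation changed far fewer genes than were called in the data, so these rates need not hold for the data.

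Groups and replicate numbers came from the sample labels, which call the replicates biological. The spread between replicates exceeded counting error in each of 60 replicate pairs. Deviations from group means of same-numbered libraries correlated between -0.61 and 0.669, and were over 0.1 in all 3 pairs in H1975 and HCC827 (DTPs and short washout) and HCC2935 (DMSO and acute). For these, a fit of the 6 libraries with the replicate number as a block was added after seeing the data. The other settings tried were RLE size factors, scaling by library size alone, no low-count filter, a minimum of 10 counts in each library, the 6 libraries of the 2 arms, all 60 libraries, DESeq2 1.42.0, limma 3.58.1 on log2 TPM, a replicate block, and each library left out in turn. The members, the marker lists and the lists of relatives, regulators and adhesion genes were chosen with earlier results of these data known. All members and treatment check genes are named, as are the relatives apart from one that is not reported here, and other lists by the 2 highest and 2 lowest called genes, and likeness by the 3 highest correlations. Tables and plots were made with Python 3.11.15, pandas 2.3.3 and matplotlib 3.10.9.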

Additional observations from a re-analysis of the deposited data

Results flagged for a closer look

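The response to the drug differed between the 4 lines, by an F-test of the interaction of line and arm, for the following members. With acute osimertinib these were YES1 (adjusted p = 3.21e-05), called lower in PC9, H1975 and HCC2935 and not in HCC827, FYN (adjusted p = 0.000122), called higher in PC9 and H1975 and lower in HCC2935, FRK (adjusted p = 0.00388), PTK2 (adjusted p = 0.0123), LYN (adjusted p = 0.0138) and SRC (adjusted p = 0.0228). FRK and SRC differed in size, since both were called higher in each line.

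In DTPs against DMSO the lines differed for all 8 members tested. SRC (adjusted p = 6.63e-06) and LYN (adjusted p = 1.24e-05) were called higher in PC9 and H1975 and lower in HCC827. FRK (adjusted p = 0.000256) was called higher in PC9 and lower in HCC827, and BCAR1 (adjusted p = 0.000834) higher in HCC827 and lower in H1975. YES1 (adjusted p = 0.00123) was called in PC9 alone, LCK (adjusted p = 0.00875) was lower in H1975 and HCC827, and PTK2 (adjusted p = 0.0393) lower in PC9 and H1975. FYN (adjusted p = 0.024) differed in size, since it was called higher in each line. Since line, depth of sequencing and, for the washout, its length go together, their parts cannot be told apart. Groups of 3 libraries were too small for a test of outlying samples.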

How the results depend on the processing

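Of 186 comparisons of a member within a line, 74 were called, and 42 of these were called in every alternative and every fit with a library left out. In 23 the call was lost in at least 1 alternative and in 30 on leaving out at least 1 library, and 25 uncalled ones were called in at least 1 fit. The low-count filter removed FGR in every line and LCK in HCC2935.

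The sign turned, with a call on one side, in 2 fits, both with limma on log2 TPM. PTK2 in PC9 was at 0.06 in DTPs against DMSO (called lower by edgeR) and at 0.27 against acute osimertinib (called higher by limma, not called by edgeR). On that scale the median of all genes was at 0.30 and 0.28, so that PTK2 lay below it or beside it. Counts of called members moved by over 1.5 times with limma on log2 TPM in acute HCC827 (1), DTPs against DMSO in HCC2935 (2) and DTPs against acute osimertinib in PC9 (5). With the 6 libraries of the 2 arms they moved in DTPs against acute osimertinib in H1975 (1), short washout in PC9 (1) and long washout against DTPs in PC9 (1) and HCC2935 (0). In the last of these RLE size factors, at least 10 counts in every library and DESeq2 each gave 2, and for the difference between lines in long washout against DTPs all 60 libraries gave 1. The cause of these moves was not tested.

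Leaving out 1 library gave, in the order PC9, HCC827, H1975 and HCC2935, counts of 5 to 6, 0 to 3, 5 to 8 and 4 to 5 for acute against DMSO. For DTPs against DMSO they were 6 to 7, 4 to 6, 4 to 7 and 1 to 2, and for DTPs against acute osimertinib 0 to 4, 4 to 6, 1 to 5 and 2 to 5. They were 0 to 0 in each line for the short washout. For long washout against DTPs they were 1 to 3, 0 to 0, 0 to 0 and 0 to 2, and against DMSO 2 to 6, 1 to 6, 4 to 6 and 2 to 2. For the differences between lines they were 5 to 7 (acute), 7 to 8 (DTPs), 0 to 1 (long washout against DTPs) and 8 to 8 (DMSO).

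With the replicate number as a block in the fit of a line, the counts of members were 5, 3, 6 and 5 for acute against DMSO and 6, 6, 6 and 1 for DTPs against DMSO, as without it. They were 2 in place of 3 in PC9 and 3 in place of 4 in HCC2935 for DTPs against acute osimertinib (FYN and FRK), and 6 in place of 5 for long washout against DMSO in H1975 (PTK2). With the block and the 6 libraries of the 2 arms, 1 member was called for the short washout in H1975 and 0 in HCC827, while 1756 and 2 of all genes were called there in place of 9 and 0. In HCC2935 6 members in place of 5 were called with acute osimertinib, LYN being the added member (-0.25, adjusted p = 0.0353). These blocks changed no other call of a member.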

Other observations

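After the short washout 3 of 35 focal adhesion and adaptor genes were called in PC9 and 2 of 34 in HCC2935, beside 6.03% and 3.12% of all genes. The kindlin FERMT1 (0.54 ± 0.15 and 0.73 ± 0.08) and the actin crosslinker ACTN1 (0.37 ± 0.08 and 0.47 ± 0.12) were higher in both. PTK2B was lower in HCC2935 (adjusted p = 0.0328), at 44.7, 43.5 and 44.9 CPM against 61.1, 60.4 and 59.9 in DTPs. In HCC827 and H1975 edgeR called 0 genes of that list, with 0 and 3 at an unadjusted p under 0.05.

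After the long washout LIMS2 was still among the genes of that list furthest above DMSO in each line (4.37 ± 0.46 in PC9, 4.47 ± 0.69 in HCC827, 0.86 ± 0.27 in H1975 and 4.08 ± 0.39 in HCC2935). CSK in PC9 was below DMSO (-0.52 ± 0.09) after a rise over DTPs of 0.30 ± 0.09 (adjusted p = 0.0228). PAG1 was higher in DTPs than in acute osimertinib in PC9 (2.61 ± 0.31) and HCC827 (1.35 ± 0.29).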
